A study of Mus musculus with 24 samples.

Results

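Adipocyte genes in post-infarction mouse hearts are described here through 9 transcripts, Adipoq, Cfd, Retn, Lep, Plin1, Cidec, Car3, Cyp2e1 and Pck1, out of 21878 genes in the count table. They were chosen by name, as genes that fat cells are known to express strongly, and with earlier results of these data known. All 9 were found. Each level was followed in every heart library and across the 4 groups of mice.

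The hearts came from ovariectomised mice and were taken 3 weeks after a myocardial infarction (MI). Mice had received an adeno-associated virus of serotype 9 (AAV9), which was either empty or overexpressed miR-21, a microRNA (AAV9-OE miR-21). Part of them swam before the infarction and the others, labelled control, did not. The groups are called miR-21 swimming (AAV9-OE miR-21, swimming, MI; 5 libraries), miR-21 control (AAV9-OE miR-21, no swimming, MI; 6 libraries), empty vector swimming (AAV9-Empty, swimming, MI; 6 libraries) and empty vector control (AAV9-Empty, no swimming, MI; 6 libraries). Every group therefore shares the ovariectomy, the virus capsid and the infarction, and none was uninjured. The labels give the tissue as heart without a chamber, and give neither the age of the mice nor the promoter that drives miR-21.

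White fat cells store triglyceride in a single large droplet and release fatty acids from it when energy is short. They also secrete hormones, the adipokines, of which adiponectin and leptin are the best known. Fat lies on the surface of the mouse heart and along its great vessels, while cardiomyocytes burn fatty acids and keep only small droplets.

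The 9 genes were followed as a group, so the stretches upstream of their starts were searched for motifs they might share, and those that held one are printed. RefSeq promoter windows of the GRCm38.p6 build, 250 bases ending just before the start, matched 8 of the 9 genes in 9 windows, with 2 for Cidec and none for Car3. Capitals mark the motif TTGCNNAA, the core letters bound by C/EBP factors, in Lep, Plin1 and the second window of Cidec, and TATAAA, the TATA box, in Cyp2e1. Each sequence runs 5′ to 3′ on the strand of the gene.
Lep (chr6:29059971-29060220, plus strand): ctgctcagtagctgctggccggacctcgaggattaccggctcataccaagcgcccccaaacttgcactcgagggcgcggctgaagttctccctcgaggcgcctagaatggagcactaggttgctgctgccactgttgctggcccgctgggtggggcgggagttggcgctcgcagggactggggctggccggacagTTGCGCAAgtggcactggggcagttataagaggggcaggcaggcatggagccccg
Plin1 (chr7:79732777-79733026, minus strand): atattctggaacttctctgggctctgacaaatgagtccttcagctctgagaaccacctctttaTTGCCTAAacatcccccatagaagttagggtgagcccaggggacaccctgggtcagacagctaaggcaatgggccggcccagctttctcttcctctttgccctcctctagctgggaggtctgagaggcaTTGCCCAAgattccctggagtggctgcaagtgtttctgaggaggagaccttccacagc
Cidec (chr6:113434765-113435014, minus strand): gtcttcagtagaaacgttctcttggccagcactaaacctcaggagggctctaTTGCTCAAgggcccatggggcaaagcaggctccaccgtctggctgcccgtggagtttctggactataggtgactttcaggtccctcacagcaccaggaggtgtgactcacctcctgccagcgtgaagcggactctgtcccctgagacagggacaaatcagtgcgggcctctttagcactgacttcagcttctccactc
Cyp2e1 (chr7:140763569-140763818, plus strand): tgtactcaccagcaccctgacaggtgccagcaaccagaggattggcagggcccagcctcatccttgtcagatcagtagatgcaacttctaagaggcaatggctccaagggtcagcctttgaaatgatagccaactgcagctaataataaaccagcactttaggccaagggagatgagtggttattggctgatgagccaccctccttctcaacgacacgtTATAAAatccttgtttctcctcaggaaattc

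TTGCNNAA, searched on both strands, was found in 3 of the 9 windows, and in 9.56% of all 32851 windows of the same length. Its first letter lay 55 bases before the start in Lep, 58 and 187 bases before it in Plin1, and 198 bases before it in Cidec. TATAAA was in 1 of the 9 windows, that of Cyp2e1, 31 bases before the start, and in 12.4% of all windows. A direct repeat of AGGNCA with 1 base between the copies, the form bound by PPARG with RXR, was in 0 of the 9 windows and in 0.338% of all. The windows held a median of 2 CG pairs, against 6 in all windows, with 0 in Adipoq and 16 in Lep. A match describes letters in this window and says nothing of a factor bound there.

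Libraries held 12744241 to 14657630 counts, and levels are given as CPM (counts-per-million), counts set relative to a library size adjusted by trimmed mean of M-values (TMM). Ventricular cardiomyocyte markers (8 genes, among them Myh6, a cardiac myosin heavy chain) summed to 54381 to 113518 CPM, so that each library carried heart muscle RNA. A level of 3 counts, the limit that a count of 0 allows, corresponds to 0.176 to 0.253 CPM in a library. Such limits, and the intervals below, cover counting error only. The libraries that stood apart by these 9 genes were 3: miR-21 swimming replicate 2, and empty vector control replicates 2 and 5. Comparisons of groups that were fitted here are given with and without them. They were set apart by the level of these genes in earlier results of the same data, so no test stands behind their number. For the same reason, p-values of these genes without the 3 libraries describe the remaining libraries and are no independent support.

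The 9 genes summed to 361 CPM in miR-21 swimming replicate 2, and to 408 and 351 CPM in empty vector control replicates 2 and 5. In the other 20 libraries the sum lay between 1.26 and 24.7 CPM, with a median of 4.26. These sums were 0.0423%, 0.0433% and 0.0384% of all counts in the 3 libraries, and 0.000127% to 0.00242% in the other 20. Fewer fat cells and less RNA per fat cell cannot be told apart in such bulk samples. By group, the median sum was 9.91 CPM in miR-21 swimming, 3.40 in miR-21 control, 2.88 in empty vector swimming and 23.6 in empty vector control. Of the 4 remaining empty vector control libraries, 3 at 12.7, 22.4 and 24.7 CPM lay above all 12 libraries of miR-21 control and empty vector swimming, whose highest sum was 7.39 CPM, and the fourth was at 4.17 CPM. The 4 remaining miR-21 swimming libraries were spread from 1.91 to 17.5 CPM.

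**Figure D1:**
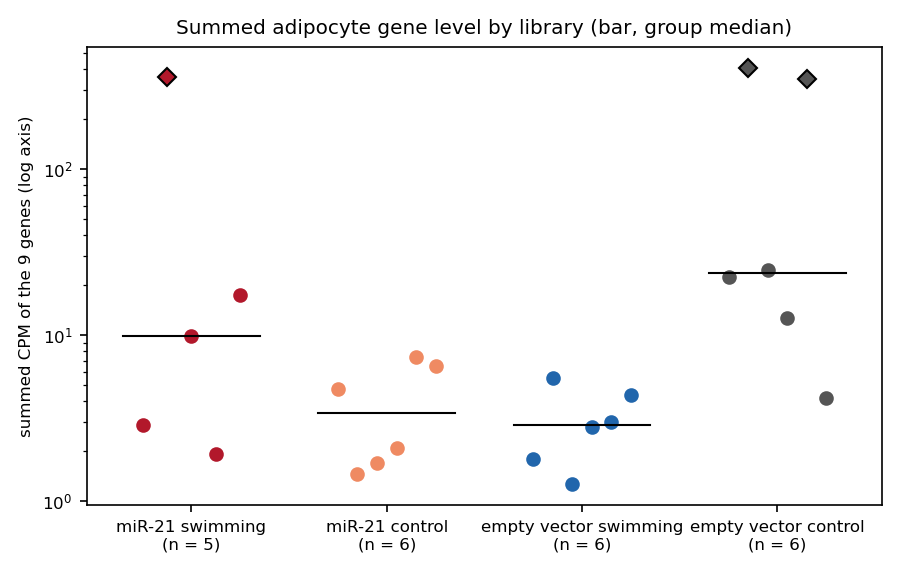
Summed CPM of the 9 adipocyte genes (log axis) in each library of the 4 groups, with a bar at the group median and diamonds for the 3 libraries that stand apart. The diamonds lie at 351 to 408 CPM, and the other 20 libraries at 1.26 to 24.7 CPM.

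Each of the 9 genes was higher in all 3 of these libraries than in any of the other 20. That pattern held for 1224 of the 13501 genes tested, or 9.07%, and the libraries were chosen by these 9 genes, so their count carries no weight of its own. The lowest of the 3 exceeded the highest of the 20 by 13.4 times for Cfd, 12.5 times for Car3, 11.4 times for Plin1, 11.2 times for Cidec and 10.98 times for Adipoq. The gap was narrower for Cyp2e1 at 7.55 times, Retn at 4.79 times, Pck1 at 4.49 times and Lep at 3.57 times.

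**Figure D2:**
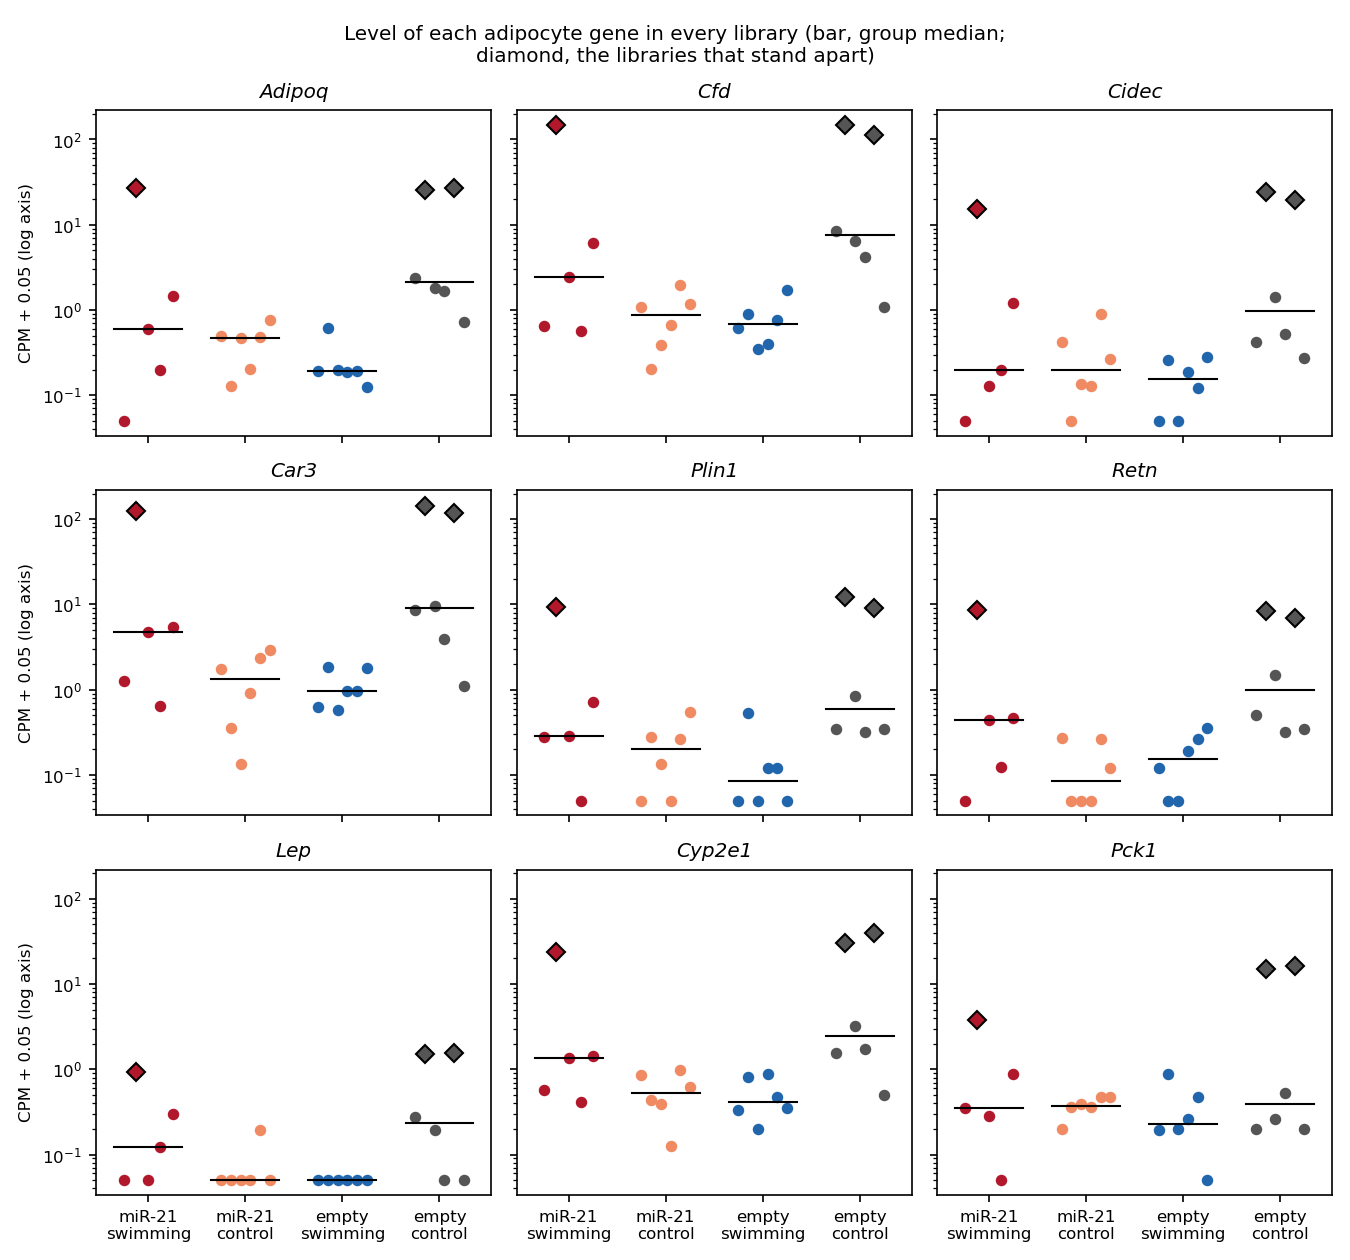
CPM of each adipocyte gene (0.05 added, log axis) in every library, by group, with a bar at the group median. Diamonds are the 3 libraries that stand apart, and in each panel all 3 lie above every other library.

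Among the secreted proteins, Adipoq encodes adiponectin, a hormone that only fat cells make in quantity. Its levels in miR-21 swimming replicates 1 to 5 were 0, 27.0, 0.546, 0.147 and 1.40 CPM. The lowest, median and highest levels were 0.0767, 0.424 and 0.710 CPM in miR-21 control, 0.0765, 0.142 and 0.558 CPM in empty vector swimming, and 0.669, 2.05 and 26.9 CPM in empty vector control. All 6 empty vector swimming libraries were thus below all 6 empty vector control libraries, including the 4 left when replicates 2 and 5 are set aside, at 0.669 to 2.32 CPM. The highest miR-21 control library, at 0.710 CPM, lay above the lowest empty vector control library.

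Cfd encodes adipsin, complement factor D, the serine protease that starts the alternative complement pathway by cutting factor B. It was at 0.600, 147, 2.42, 0.515 and 6.01 CPM in miR-21 swimming replicates 1 to 5. Its lowest, median and highest levels were 0.153, 0.825 and 1.92 CPM in miR-21 control, 0.297, 0.640 and 1.68 CPM in empty vector swimming, and 1.04, 7.45 and 148 CPM in empty vector control. The empty vector control libraries overlapped miR-21 control and empty vector swimming through a single library, replicate 6, at 1.04 CPM.

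Retn encodes resistin, an adipokine that in mice is made by fat cells. In miR-21 swimming replicates 1 to 5 it was at 0, 8.46, 0.390, 0.0736 and 0.412 CPM. The other groups had a lowest, median and highest level of 0, 0.0355 and 0.221 CPM in miR-21 control, 0, 0.105 and 0.306 CPM in empty vector swimming, and 0.269, 0.939 and 8.41 CPM in empty vector control. Outside the 3 libraries Retn never exceeded 1.43 CPM, reached in empty vector control replicate 3.

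Lep encodes leptin, the hormone that reports fat stores to the brain. It was the scarcest of the 9, with 72 counts over all 23 libraries. It was at 0, 0.881, 0, 0.0736 and 0.247 CPM in miR-21 swimming replicates 1 to 5. In miR-21 control 5 of 6 libraries had a count of 0 and the highest was 0.142 CPM, all 6 empty vector swimming libraries had a count of 0, and empty vector control had a lowest, median and highest level of 0, 0.184 and 1.505 CPM. Over each group, Lep had 19 counts in miR-21 swimming, 2 in miR-21 control, 0 in empty vector swimming and 51 in empty vector control. Against the limit of 3 counts over the group, Lep was at least 16.4-fold lower in empty vector swimming than in empty vector control, and at least 7.66-fold higher in miR-21 swimming than in empty vector swimming. Without the 3 libraries the counts were 4 in miR-21 swimming, 2 in miR-21 control, 0 in empty vector swimming and 5 in empty vector control, too few to compare.

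Of the proteins on the lipid droplet, Plin1 encodes perilipin 1, which coats the droplet and holds lipases off it. Its levels in miR-21 swimming replicates 1 to 5 were 0.225, 9.40, 0.234, 0 and 0.659 CPM. The lowest, median and highest were 0, 0.149 and 0.497 CPM in miR-21 control, 0, 0.0348 and 0.488 CPM in empty vector swimming, and 0.269, 0.543 and 12.2 CPM in empty vector control. Apart from the 3 libraries, no library passed 0.786 CPM, and the 4 groups overlapped.

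Cidec (Fsp27) encodes a droplet protein that moves lipid from small droplets into large ones. It was at 0, 15.2, 0.0780, 0.147 and 1.15 CPM in miR-21 swimming replicates 1 to 5. Its lowest, median and highest levels were 0, 0.149 and 0.853 CPM in miR-21 control, 0, 0.105 and 0.229 CPM in empty vector swimming, and 0.223, 0.914 and 23.9 CPM in empty vector control. The highest of the 6 empty vector swimming libraries lay just above the lowest empty vector control library, at 0.229 and 0.223 CPM, and the other 5 lay below it.

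The 3 enzymes complete the set. Car3 encodes carbonic anhydrase III, an abundant cytosolic protein of fat cells that slow skeletal muscle and liver also make. In miR-21 swimming replicates 1 to 5 it was at 1.20, 126, 4.68, 0.589 and 5.35 CPM. Its lowest, median and highest levels were 0.0843, 1.27 and 2.84 CPM in miR-21 control, 0.519, 0.912 and 1.81 CPM in empty vector swimming, and 1.04, 9.02 and 143 CPM in empty vector control. Replicates 3 and 5 of miR-21 swimming, besides replicate 2, lay above every miR-21 control and empty vector swimming library.

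Cyp2e1 encodes a cytochrome P450 that oxidises ethanol and other small molecules, best known from liver and also expressed in fat. It was at 0.525, 23.7, 1.33, 0.368 and 1.40 CPM in miR-21 swimming replicates 1 to 5. The lowest, median and highest levels were 0.0774, 0.476 and 0.924 CPM in miR-21 control, 0.148, 0.365 and 0.835 CPM in empty vector swimming, and 0.446, 2.41 and 39.3 CPM in empty vector control. Empty vector control replicate 5 was the highest library for Cyp2e1, and replicate 6 of that group fell inside the range of the low groups.

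Pck1 encodes cytosolic phosphoenolpyruvate carboxykinase, which makes glucose precursors in liver and the glycerol backbone of triglyceride in fat, and which rises on fasting. It was at 0.300, 3.76, 0.234, 0 and 0.823 CPM in miR-21 swimming replicates 1 to 5. Its lowest, median and highest levels were 0.147, 0.323 and 0.426 CPM in miR-21 control, 0, 0.179 and 0.837 CPM in empty vector swimming, and 0.149, 0.343 and 16.1 CPM in empty vector control. Outside the 3 libraries, Pck1 showed no step between groups, and its highest level, 0.837 CPM, was in an empty vector swimming library.

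Levels of different genes can be set side by side only per length, as in the authors' FPKM (fragments per kilobase of transcript, scaled by sequencing depth). Averaged over the 3 libraries, Cfd led with 163 FPKM, followed by Car3 with 92.9, Adipoq with 23.8, Cyp2e1 with 19.8 and Cidec with 11.5 FPKM. Retn had 6.82, Plin1 5.45, Pck1 4.86 and Lep 0.430 FPKM. The order of neighbours was not the same in each library: Cyp2e1 stood above Adipoq in empty vector control replicate 5 (24.7 against 23.9 FPKM), and Pck1 was at 1.68 FPKM in miR-21 swimming replicate 2, against 6.16 and 6.74 FPKM in empty vector control replicates 2 and 5. Among all genes of a library, Cfd ranked between 352 and 479, and Lep between 12627 and 13502. In the other 20 libraries Cfd and Car3 were again the highest, with medians of 1.01 and 0.914 FPKM.

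The make-up of the adipocyte counts was steady for Car3 and less so for Cfd. Cfd made up 40.7% of the 9-gene counts in miR-21 swimming replicate 2, 36.2% and 32.4% in empty vector control replicates 2 and 5, and 28.2% in the other 20 libraries pooled (exact 95% interval 26.1 to 30.3%). Car3 made up 34.9%, 35.03%, 33.7% and 35.6% in the same order, and these intervals overlapped. Adipoq made up 7.47%, 6.26% and 7.67% in the 3 libraries and 8.63% in the 20, and Plin1 made up 2.60%, 2.98%, 2.56% and 3.19%. Plin1 to Adipoq count ratios were 0.349, 0.476 and 0.333 in the 3 libraries and 0.370 in the pooled 20 (exact 95% interval 0.271 to 0.501).

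Pck1 varied more. It had 0.139 counts per Adipoq count in miR-21 swimming replicate 2 (exact 95% interval 0.106 to 0.181), against 0.594 (0.502 to 0.702) and 0.599 (0.511 to 0.701) in empty vector control replicates 2 and 5. In the remaining libraries pooled by group the ratio was 0.654 in miR-21 swimming, 0.867 in miR-21 control, 1.47 in empty vector swimming and 0.157 in empty vector control, on 17, 26, 25 and 14 Pck1 counts. The interval of the 4 remaining empty vector control libraries, 0.0827 to 0.278, lay apart from those of replicates 2 and 5 of the same group and overlapped that of miR-21 swimming replicate 2. Cyp2e1 also varied, with 0.880, 1.20 and 1.46 counts per Adipoq count in the 3 libraries and 1.37 in the other 20. These intervals compare single libraries or pools and leave out the spread between hearts.

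**Figure D3:**
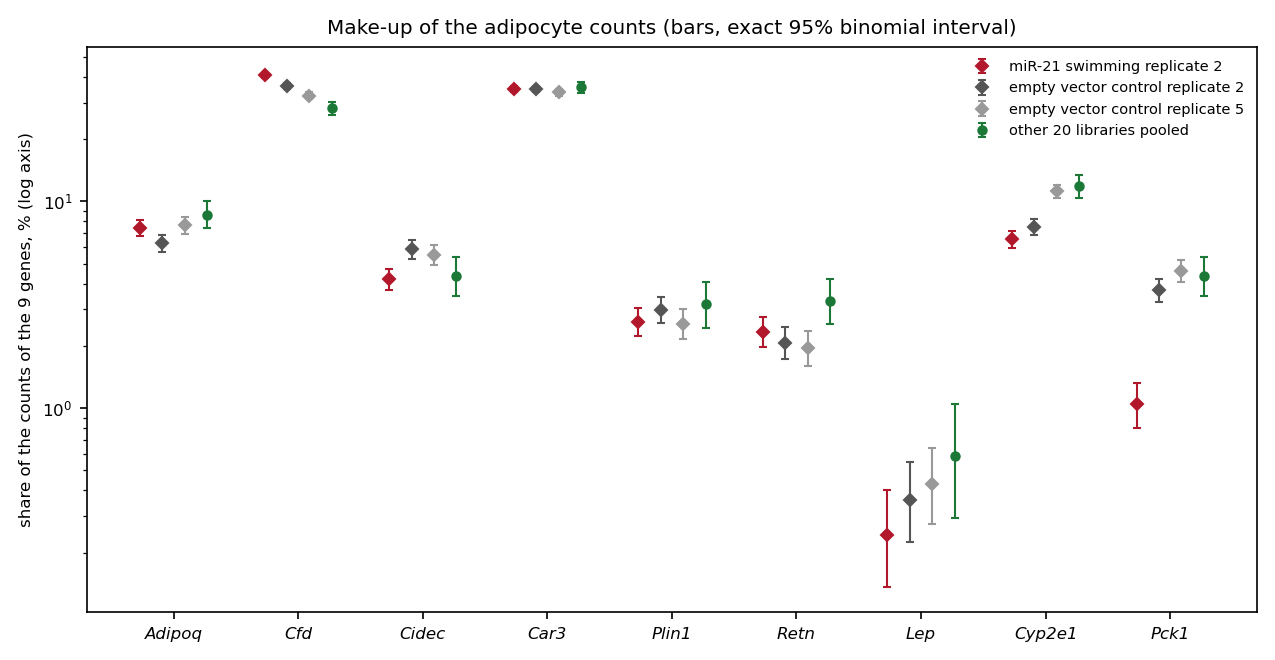
Share of each gene in the summed counts of the 9 adipocyte genes (log axis) in the 3 libraries that stand apart and in the other 20 pooled, with exact 95% binomial intervals. Car3 stays at 33.7 to 35.6% throughout, while Pck1 is at 1.04% in miR-21 swimming replicate 2, against 3.72% and 4.60% in empty vector control replicates 2 and 5.

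Differences between groups were tested with edgeR's quasi-likelihood test over 13501 genes, with p-values adjusted by Benjamini-Hochberg and a gene called at an adjusted p under 0.05. Only 6 of the 9 genes passed its filter on low counts, since Plin1, Retn and Lep were too low in most libraries. Cidec and Pck1 passed only with the 3 high libraries included, so the counts below describe these 6 and are not evidence about all 9. Levels of the 9 genes also tended to rise and fall together. Over their 36 pairs in the other 20 libraries, Spearman's rho had a median of 0.62 and ran from -0.154 to 0.952. Calls of several of these genes are therefore not separate findings, and the genes were chosen with earlier results known. The labels do not say whether the libraries are of different mice, so that p-values measure the spread between these samples, which may be technical.

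The first comparison asked what swimming did under the empty vector. In empty vector swimming against empty vector control, all 6 tested genes fell. The log2 fold changes were -6.03 ± 1.59 for Cidec (fold change ± SE, adjusted p = 0.0262 by edgeR), -5.98 ± 1.54 for Cfd (0.024), -5.54 ± 1.38 for Adipoq (0.0196), -5.45 ± 1.41 for Car3 (0.0244), -4.76 ± 1.19 for Cyp2e1 (0.02) and -4.14 ± 1.19 for Pck1 (0.0369). The empty vector control mean is set by replicates 2 and 5, so libraries were held against that group's median: 6 of 6 empty vector swimming libraries lay below it for each gene but Pck1, for which 4 of 6 did. Of all tested genes 3.28% were called lower (7.46% changed). Adipoq was the 1 gene of the 9 whose groups did not overlap, a pattern found downwards in 1.68% of all tested genes. The median log2 fold change of the 6 was -5.49, and that of all tested genes was -0.00.

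With the 3 libraries left out, 4 of the genes could be tested and all 4 were called lower, by less. Leaving out libraries picked by these genes also narrows their spread, so the adjusted p-values here are no added support. The log2 fold changes were -2.92 ± 0.62 for Adipoq (edgeR adjusted p = 0.00347), -2.75 ± 0.68 for Cfd (0.0129), -2.40 ± 0.70 for Car3 (0.0321) and -1.85 ± 0.51 for Cyp2e1 (0.0204), where 11.6% of all tested genes changed. Cidec and Pck1 no longer passed the filter: Cidec averaged 0.108 ± 0.101 CPM in empty vector swimming and 0.607 ± 0.511 CPM in the 4 remaining empty vector control libraries (SD, n = 6 and 4). Pck1 showed no difference beyond its spread, at 0.294 ± 0.300 CPM and 0.246 ± 0.153 CPM in the same order. All empty vector control libraries carry a lower number series in their titles and all empty vector swimming libraries a higher one, so this difference and the series cannot be told apart. With a series term, which only the miR-21 swimming libraries inform, 0 of the 6 genes were called (-1.24 ± 2.05 for Adipoq, edgeR adjusted p = 0.825), where 1.21% of all genes changed. With limma voom and quality weights 1 gene was called, where 12.5% of all genes changed. The number of called genes fell to 2 without empty vector control replicate 5 or without empty vector swimming replicate 1, 3 or 5, and to 3 without empty vector swimming replicate 2.

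The effect of miR-21 without swimming used the same empty vector control libraries, so its values are not independent of those above. In miR-21 control against empty vector control, 1 of the 6 genes was called, Cyp2e1, at -4.59 ± 1.18 (edgeR adjusted p = 0.0486), where 1.37% of all tested genes were called lower and 2.25% changed. Cfd at -5.72 ± 1.51 (0.0505), Car3 at -5.10 ± 1.37 (0.0514), Cidec at -4.76 ± 1.42 (0.0643), Adipoq at -4.68 ± 1.28 (0.053) and Pck1 at -4.01 ± 1.18 (0.0615) had fold changes of like size and missed the threshold. Against the empty vector control median, 6 of 6 miR-21 control libraries were lower for each gene but Pck1, for which 4 of 6 were. Retn, which was not tested, had groups that did not overlap, with at most 3 counts in a miR-21 control library and at least 4 in an empty vector control library. That pattern was found downwards in 2.41% of all tested genes.

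In the other 20 libraries, Adipoq at -2.06 ± 0.57 (edgeR adjusted p = 0.0363) and Cfd at -2.49 ± 0.67 (0.0371) were called in miR-21 control against empty vector control, while Car3 at -2.06 ± 0.68 (0.0799) and Cyp2e1 at -1.68 ± 0.51 (0.052) were not, and 5.76% of all genes changed. Pck1, too low to test there, showed no difference beyond its spread, at 0.326 ± 0.103 CPM in miR-21 control and 0.246 ± 0.153 CPM in the 4 remaining empty vector control libraries (SD, n = 6 and 4). Both groups lie within the lower number series. By other settings 6 of the 6 genes were called with DESeq2 (9.15% of all genes changed) and with the series term (6.75%), 2 of 8 with a filter at a mean of 1 CPM (2.45%), and 0 with no filter (0.842%) or with limma voom (9.68%). Single libraries decided the count: 6 genes were called without empty vector control replicate 1 or 3 or miR-21 swimming replicate 2, 5 without empty vector control replicate 6 or miR-21 swimming replicate 3, 4 without miR-21 swimming replicate 1 or 5, and 0 without any of the other 16 libraries.

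The remaining comparisons turn on miR-21 swimming replicate 2. In miR-21 swimming against empty vector swimming 0 of the 6 genes were called, where 4.58% of all tested genes changed. Log2 fold changes were 5.42 ± 1.56 for Cfd (edgeR adjusted p = 0.0518), 4.86 ± 1.64 for Cidec (0.0953), 4.81 ± 1.41 for Adipoq (0.0547), 4.68 ± 1.42 for Car3 (0.065), 3.56 ± 1.21 for Cyp2e1 (0.098) and 1.81 ± 1.26 for Pck1 (0.448). Of the 5 miR-21 swimming libraries, 3 or 4 lay above the empty vector swimming mean for each gene. Unadjusted, 5 of the 6 had an edgeR p under 0.05, a threshold at which the share of all genes was not counted. DESeq2 called 5 (7.18% of all genes), while a filter at a mean of 1 CPM left 1 called (4.72%). Without the 3 libraries the fold changes were 1.67 ± 0.72 for Cfd (0.121), 1.44 ± 0.73 for Car3 (0.194), 1.29 ± 0.74 for Adipoq (0.241) and 0.94 ± 0.56 for Cyp2e1 (0.267), where 17.3% of all genes changed. One gene was called without empty vector control replicate 2 or 4, and 2 were called without empty vector control replicate 6 or miR-21 swimming replicate 1 or 4.

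In miR-21 swimming against miR-21 control 0 of the 6 genes were called as well, where 0.17% of all tested genes changed. The log2 fold changes were 5.15 ± 1.53 for Cfd (edgeR adjusted p = 0.11), 4.33 ± 1.38 for Car3 (0.129), 3.95 ± 1.30 for Adipoq (0.141), 3.59 ± 1.45 for Cidec (0.2), 3.39 ± 1.20 for Cyp2e1 (0.163) and 1.68 ± 1.25 for Pck1 (0.459). Unadjusted, 5 of the 6 had an edgeR p under 0.05, where again the share of all genes was not counted. DESeq2 called 4 (2.8% of all genes). With the 3 libraries left out they were 1.41 ± 0.71 for Cfd (0.355), 1.10 ± 0.72 for Car3 (0.514), 0.77 ± 0.56 for Cyp2e1 (0.562) and 0.44 ± 0.68 for Adipoq (0.822), where 1.0% of all genes changed. With the series term, which sets miR-21 swimming replicates 1 and 2 alone against miR-21 control, 4 genes were called (Cfd, Adipoq, Car3 and Cyp2e1, edgeR adjusted p from 0.0264 to 0.0372), where 7.97% of all genes changed.

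Whether swimming acted differently under the vectors was tested as an interaction, the log2 fold change of swimming under miR-21 minus that under the empty vector. Its empty vector part cannot be told apart from the title number series. The miR-21 swimming group holds 2 libraries of the lower series and 3 of the higher, and all 3 libraries that stand apart carry the lower series. It was called upwards for 5 of the 6 genes, where 0.326% of all tested genes were called higher and 0.541% changed. The values were 11.13 ± 2.17 for Cfd (edgeR adjusted p = 0.0291), 9.78 ± 1.97 for Car3 (0.0291), 9.62 ± 2.16 for Cidec (0.0455), 9.49 ± 1.90 for Adipoq (0.0291) and 8.15 ± 1.69 for Cyp2e1 (0.031), while Pck1 at 5.82 ± 1.72 (0.0836) was not called. In the other 20 libraries 0 of 4 genes were called, at 4.17 ± 0.99 for Cfd (0.0698), 3.49 ± 1.002 for Car3 (0.121), 3.36 ± 0.94 for Adipoq (0.0982) and 2.61 ± 0.76 for Cyp2e1 (0.111), where 0.396% of all genes changed. Each of the 4 had an unadjusted edgeR p under 0.05, for which the share of all genes was not counted. With limma voom (0.97% of all genes changed) and with the series term (0.185%) 0 genes were called. Without 1 library, 0 genes were called when it was empty vector control replicate 5, empty vector swimming replicate 1 or 5, miR-21 control replicate 2, 3 or 4, or miR-21 swimming replicate 2, 1 when it was empty vector swimming replicate 6 or miR-21 control replicate 1, and 2 when it was empty vector swimming replicate 2 or 3.

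**Figure D4:**
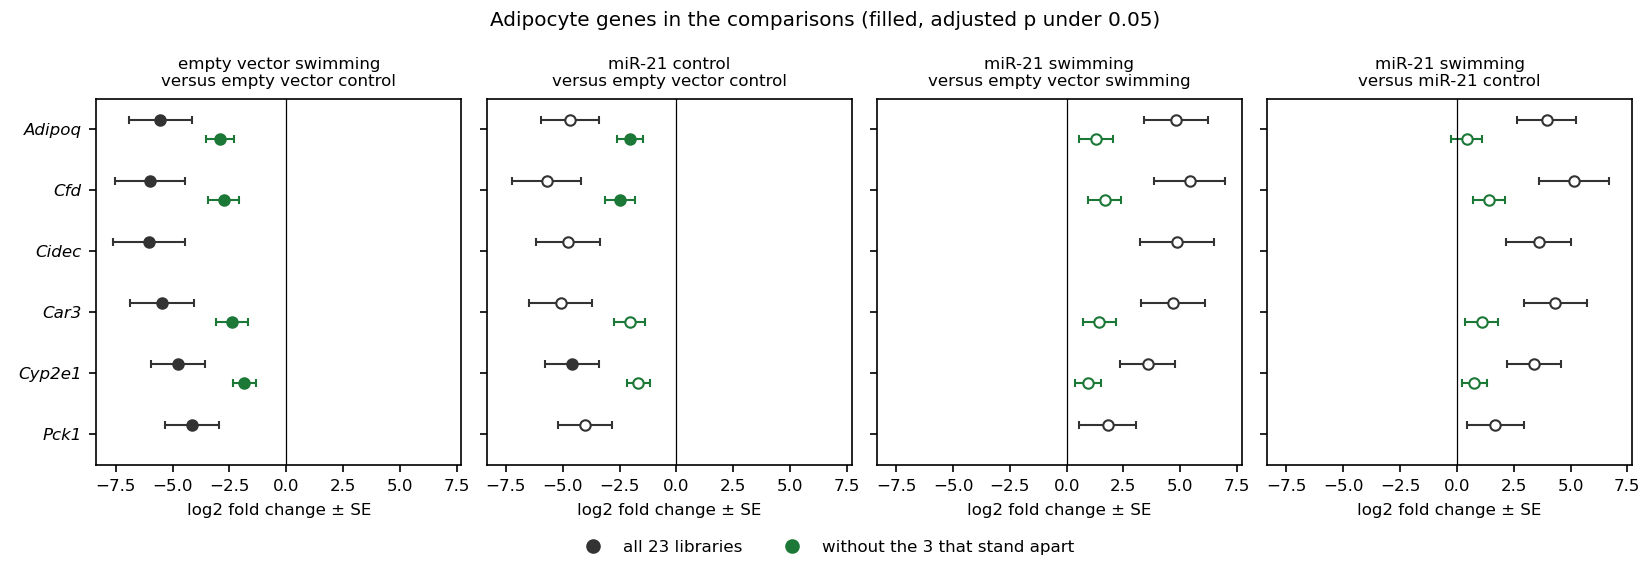
Log2 fold change ± SE of the 6 tested adipocyte genes in the 4 comparisons of groups, with all 23 libraries (grey) and without the 3 that stand apart (green, 4 genes). Filled points had an edgeR adjusted p under 0.05: 6 and 4 in empty vector swimming against empty vector control, 1 and 2 in miR-21 control against empty vector control, and 0 in the others.

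In the authors' deposited tables of the same 4 comparisons, 0 of the 9 genes had a q-value under 0.05. Over all genes with a q-value in the authors' deposited tables the share under 0.05 was 4.03% for empty vector swimming and 6.3% for miR-21 control, each against empty vector control, and 0.837% and 0.127% for miR-21 swimming against empty vector swimming and against miR-21 control, so that 0 of 9 lies near these shares. The lowest q-value of the 9 in the authors' deposited table was 0.0758 for empty vector swimming against empty vector control and 0.074 for miR-21 control against empty vector control. All 9 had an unadjusted p under 0.05 in both deposited tables, but the share of all genes at that threshold was not counted. For miR-21 swimming the lowest q-value in the authors' deposited tables was 0.782 against empty vector swimming and 0.972 against miR-21 control.

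Other genes of fat were read beside these 9, from lists chosen with earlier results known. Of 13 further white fat cell markers, 5 were higher in all 3 libraries than in any of the other 20, and of the 9 that could be tested 3 fell (Agt, Aspg and Hp) and 1 rose (Cmbl) in empty vector swimming against empty vector control. Without the 3 libraries Hp was no longer called there (-3.05 ± 1.12, edgeR adjusted p = 0.0919) and the other 3 were. Adrb3, the beta-3 adrenergic receptor of fat cells, was at 4.23 CPM in miR-21 swimming replicate 2 and at 8.95 and 3.45 CPM in empty vector control replicates 2 and 5, against at most 0.375 CPM elsewhere. Slc7a10, Nnat and Adig also lay higher in all 3 than in any other library. Adig was called in no comparison, at 0.38 ± 0.61 in miR-21 swimming against miR-21 control (edgeR adjusted p = 0.749) and -0.89 ± 0.57 (0.292) in miR-21 control against empty vector control. Hp, haptoglobin, an acute-phase protein that fat and other tissues make, lay higher in all 3 as well, at 295, 623 and 230 CPM against at most 60.1 CPM. The defining brown fat marker did not: Ucp1, the uncoupling protein of brown fat, was at 0, 0 and 0.125 CPM in the 3 libraries, and Elovl3 and Otop1 were also at or below 0.125 CPM. Of 14 brown and beige markers, 2 low ones, Tmem26 and Tnfrsf9, were higher in all 3. Adipose stromal and preadipocyte markers summed to 1072 CPM in miR-21 swimming replicate 2 and to 850 and 1026 CPM in empty vector control replicates 2 and 5. The other 20 lay at 425 to 920 CPM, and 3 of these 8 genes were higher in all 3.

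Cyp2e1, Car3 and Pck1 are also genes of liver or skeletal muscle, so markers of those tissues were read in the same libraries. In the 3 libraries Alb, albumin, was at 0.0587 CPM at most, Apoc3, Fgb, Cyp3a11 and Serpina1a were at 0, and 0 of 12 liver markers were above all other libraries. Summed liver markers were 16.1 CPM in miR-21 swimming replicate 2 and 17.6 and 15.7 CPM in empty vector control replicates 2 and 5, within the 7.05 to 34.7 CPM of the other 20. Summed skeletal muscle markers were 89.8, 38.3 and 48.7 CPM in the same order, against 21.9 to 80.1 CPM. Of 11 skeletal muscle markers 0 were above all other libraries, and Myh4 and Myh2, fast myosin heavy chains, were at 0.267 CPM or less. Some of these markers nevertheless fell in the direction of the adipocyte genes: Ass1, of the liver list, in empty vector swimming (-0.82 ± 0.25, edgeR adjusted p = 0.0476) and Pvalb, of the skeletal muscle list, in miR-21 control (-2.10 ± 0.55, 0.0482), each against empty vector control. With the 3 libraries left out neither was called (Ass1 -0.56 ± 0.20, 0.0722, and Pvalb -1.54 ± 0.57, edgeR adjusted p = 0.103). Their part in the values of Cyp2e1, Car3 and Pck1 was not tested. Searching their GENCODE transcripts in words of 50 bases, 7 of the 9 genes shared 0% of words with another gene, Plin1 shared 0.194% and Cyp2e1 3.91%.

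Genes that fat cells and heart muscle both use were read next. Plin2, Plin3, Plin4 and Plin5, the other perilipins, were at 70.8, 109, 221 and 63.4 CPM in miR-21 swimming replicate 2, and 0 of these 4 were called in any comparison with all libraries. In the other 20 libraries Plin5 was called lower in empty vector swimming against empty vector control (adjusted p = 0.0275 by edgeR) and in miR-21 swimming against miR-21 control (0.0325), and Plin3 higher in miR-21 swimming against empty vector swimming (0.00623). Plin3 was lower in the 3 libraries, at 109 to 152 CPM, than in any of the other 20. Cidea, a relative of Cidec, was lower in the 3 libraries, at 26.4 to 28.3 CPM, than in any of the other 20, at 31.0 to 48.1 CPM. Cideb, the other relative, was also lower in all 3. Being lower in all 3 than in the other 20 held for 766 of the 13501 genes tested, or 5.67%. Of 13 droplet and lipolysis genes, which include these 4 perilipins, Cidea and Cideb, 0 were called in empty vector swimming against empty vector control. Of 7 fatty acid uptake genes, among them Cd36, Lpl and Fabp4, 0 were called there. Without the 3 libraries 2 of the 13 were called lower in that comparison, Plin5 and Fitm2, and still 0 of the 7. With all libraries, 2 of the 13, Mgll and Cideb, were called lower in miR-21 swimming against empty vector swimming, where 4.58% of all tested genes changed. Of 9 fat cell transcription factors 0 were called in any comparison with all libraries. Without the 3, Rxra was called higher in miR-21 control against empty vector control and in miR-21 swimming against empty vector swimming, and Pparg lower in the second (-0.43, edgeR adjusted p = 0.0309). Pparg, the master regulator of fat cell formation, was at 15.2 CPM in miR-21 swimming replicate 2 and 16.1 and 16.7 CPM in empty vector control replicates 2 and 5, inside the 10.9 to 20.7 CPM of the rest, while Cebpa was at 32.7, 26.2 and 24.8 CPM against at most 13.5 CPM.

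Fatty acid synthesis showed a mixed picture. Scd1, the stearoyl-CoA desaturase, was at 77.2, 116 and 97.3 CPM in the 3 libraries against at most 27.8 CPM in the other 20, and Fasn, fatty acid synthase, at 69.4, 64.7 and 65.5 CPM against at most 54.5 CPM. Of 11 genes of this list 3 were higher in all 3 libraries, and 1, Pnpla3, fell in empty vector swimming against empty vector control (log2 fold change -1.62 ± 0.32, edgeR adjusted p = 0.00403, and -1.30 ± 0.26, 0.0023 without the 3 libraries). Among 8 testable genes of triglyceride synthesis 3 rose in miR-21 control against empty vector control, Gpam (0.52 ± 0.10, edgeR adjusted p = 0.0186), Agpat2 (0.39 ± 0.09, 0.0303) and Dgat2 (0.70 ± 0.16, 0.0362), opposite in sign to the adipocyte genes there. With the 3 libraries left out they were at 0.51 ± 0.08, 0.40 ± 0.08 and 0.63 ± 0.10, with edgeR adjusted p from 0.00225 to 0.00646.

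The receptors of the adipokines were read in the same libraries. Adipor1, a receptor of adiponectin, was at 240 ± 29.0 CPM in miR-21 swimming, 257 ± 5.30 CPM in miR-21 control, 246 ± 7.70 CPM in empty vector swimming and 235 ± 12.98 CPM in empty vector control (SD, n = 5, 6, 6 and 6), and without the 3 libraries at 252 ± 16.7 CPM in miR-21 swimming and 242 ± 8.04 CPM in empty vector control (SD, n = 4 each). Adipor2, Cdh13 (T-cadherin, which binds adiponectin) and Lepr, the leptin receptor at 5.10 to 6.69 CPM in group means, were, like Adipor1, called in 0 of the 5 tests, with or without the 3 libraries. Tlr4, a receptor of innate immunity proposed for resistin, fell in empty vector swimming (-0.51 ± 0.15, edgeR adjusted p = 0.0352) and in miR-21 control (-0.55 ± 0.15, 0.049), each against empty vector control. In the other 20 libraries both calls held (edgeR adjusted p = 0.00492 and 0.00925). C3, the complement protein downstream of adipsin, was at 3690 CPM in miR-21 swimming replicate 2 and at 3480 and 2849 CPM in empty vector control replicates 2 and 5, against at most 1564 CPM elsewhere, and was not called in any comparison, with or without the 3 libraries.

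Other cell types moved with the adipocyte genes in the 3 libraries. Macrophage markers summed to 1721 CPM in miR-21 swimming replicate 2 and to 1923 and 1175 CPM in empty vector control replicates 2 and 5, against 239 to 754 CPM in the other 20, with 7 of 8 genes higher in all 3. Scar fibroblast markers summed to 5210, 7902 and 5647 CPM against 452 to 4838 CPM, with 3 of 8 genes higher in all 3. Lymphoid markers summed to 398, 122 and 121 CPM against 15.4 to 75.7 CPM, with 7 of 12 genes higher in all 3 and Cxcl13, a B cell chemokine, at 294 CPM in miR-21 swimming replicate 2. Lung markers summed to 4.35, 4.88 and 3.01 CPM against 0.442 to 2.22 CPM, mostly from Cyp2f2 and Ager, while Sftpb, Sftpa1 and Scgb1a1 were at 0 in the 3 libraries and Sftpc at 0.134 CPM or less. Ager fell in miR-21 control against empty vector control (-1.30 ± 0.27, edgeR adjusted p = 0.0253, and -0.93 ± 0.29, 0.0597 without the 3 libraries). Comp (1 of 8 scar fibroblast markers) and Gpnmb (1 of 8 macrophage markers) were called lower in empty vector swimming against empty vector control. Ccl21a, Ccl19 and Cd3e (3 of 8 lymphoid markers tested) were called lower there too, where 3.28% of all tested genes were. Comp, Cthrc1 and Ccl21a were called lower in miR-21 control against empty vector control, where 1.37% of all tested genes were. The interaction was called upwards for Comp (6.28 ± 1.22, edgeR adjusted p = 0.0291) and Ccl21a (2.09 ± 0.44, 0.033), where 0.326% of all tested genes were. Ventricular cardiomyocyte markers summed to 54381, 76153 and 69750 CPM, below the 83162 to 113518 CPM of the others. The part of these cells in the adipocyte values was not tested.

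Mesothelial markers, of the cells that cover the heart's surface, separated miR-21 swimming replicate 2 from the other high libraries. They summed to 245 CPM there, against 36.5 and 54.7 CPM in empty vector control replicates 2 and 5 and 10.03 to 57.9 CPM in the other 20. Upk3b was at 55.7 CPM, against 4.54 and 8.09 CPM in the same order and at most 11.6 CPM elsewhere. Of the 11 markers, 2 were higher in all 3 libraries than in any of the other 20. Upk3b, Upk1b, Lrrn4, Muc16 and Msln, 5 of 10 tested, were called higher in miR-21 swimming against empty vector swimming, where 4.58% of all tested genes changed. Upk3b was also called lower in empty vector swimming against empty vector control, where 3.28% of all tested genes were. The part of these cells in the adipocyte values was not tested either.

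**Figure D5:**
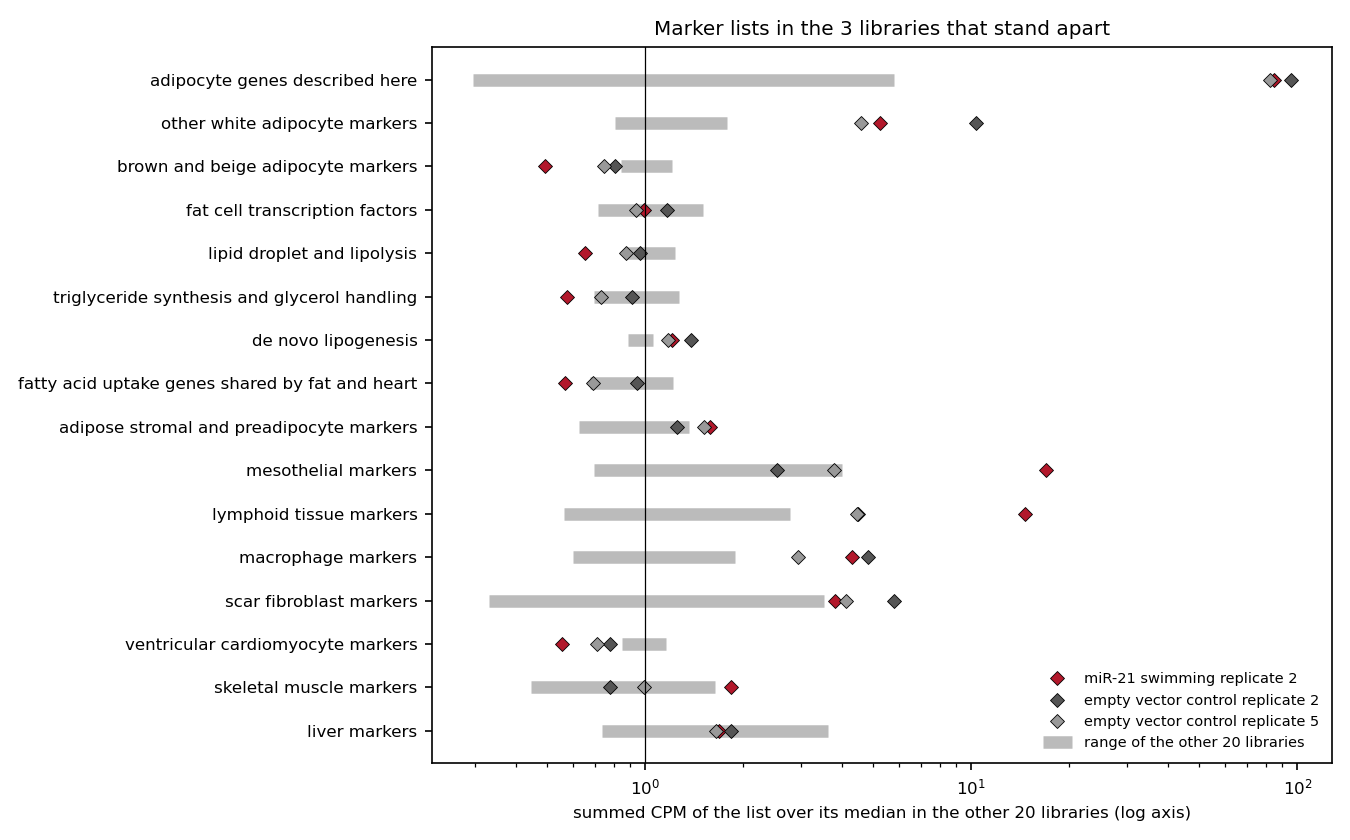
Summed CPM of each marker list, divided by its median in the other 20 libraries (log axis), for the 3 libraries that stand apart (diamonds), with the range of the other 20 as a grey bar. The adipocyte genes lie farthest above their bar, at 351 to 408 CPM against at most 24.7 CPM, while fat cell transcription factors lie within theirs and ventricular cardiomyocyte markers below.

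The genes whose pattern was most like that of the adipocyte genes were found by Spearman's rho over 23 libraries with the mean log2 CPM of the 6 tested genes, among 12801 genes. They were Fosl2 (rho 0.79), Cdo1 (0.79), Fndc3b (0.79), Chst11 (0.78), Slc6a7 (0.78), Heatr6 (0.76), Slc7a2 (0.75), Rarg (0.74), Bmp2 (0.74) and Cd22 (0.74). These values describe libraries that share groups and depth, and carry no test, since the 10 genes were picked as the highest. Cdo1, cysteine dioxygenase, showed the same step as the adipocyte genes, at 14.3 CPM in miR-21 swimming replicate 2 and 14.3 and 15.6 CPM in empty vector control replicates 2 and 5, against at most 3.00 CPM in the other 20. Fosl2, a transcription factor of the AP-1 family, overlapped, with 66.3, 55.8 and 60.3 CPM against a median of 35.1 CPM and a highest of 56.8 CPM. Over the other 20 libraries alone rho was 0.70 for Fosl2 and 0.68 for Cdo1.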

How the data were processed

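Poly(A) RNA of 23 heart libraries was sequenced. Per the labels' protocols, TRIzol was used for extraction and a stranded mRNA kit for the libraries. Per the submitters' processing notes the genome build was GRCm39, while aligner and counter were not given in the sources used here. The authors deposited raw counts per gene, FPKM values, and 4 tables with log2 fold changes, p-values and q-values from a tool that is not named. Replicate 6 of miR-21 swimming was not analysed here, and 46 other per-sample columns were not used. The 9 genes, the other lists and the 3 libraries set apart were chosen with earlier results of these data known.

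Counts were scaled by TMM, filtered with filterByExpr (13501 genes left) and tested in 1 edgeR 4.0.16 quasi-likelihood fit (robust) over all libraries, called at a Benjamini-Hochberg adjusted p under 0.05. Alternatives used DESeq2 1.42.0, limma 3.58.1, R 4.3.3, Python 3.11.15, scipy 1.17.1 and matplotlib 3.10.9. Scripts were tested on simulated data. From each of the other lists up to 4 called genes per comparison, by smallest p, or the 2 most abundant, were to be named, and further genes were named after their values were seen. The 10 most alike genes were the highest by rho, from a mean of 1 CPM (prior count 2). Depth was 12744241 to 14657630 counts a library, which limits levels under 0.253 CPM. Shares and ratios have exact 95% Clopper-Pearson intervals.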

Additional observations from a re-analysis of the deposited data

Results flagged for a closer look

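In miR-21 swimming, replicate 2 stood far above the other 4 libraries for all 9 genes, at 27.0 CPM of Adipoq, 147 of Cfd, 15.2 of Cidec, 126 of Car3, 9.40 of Plin1, 8.46 of Retn, 0.881 of Lep, 23.7 of Cyp2e1 and 3.76 CPM of Pck1. Its gap to the next library was 0.720 to 0.962 of the whole range of the group, above Dixon's 95% value for 5 samples. These 9 are readings of a single library and not 9 findings.

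Among the low libraries, empty vector swimming replicate 2 was apart from its group at 0.558 CPM of Adipoq (8 counts) and 0.488 CPM of Plin1 (7 counts), and miR-21 control replicate 5 at 0.142 CPM of Lep (2 counts, with 0 in the other 5). Chance alone flags about 1 in 20 groups. Empty vector control has a pair of high libraries, which this test of a single extreme library cannot pick out.

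A tested interaction of swimming with the vector was called for 5 genes, at 9.49 for Adipoq, 9.78 for Car3, 11.13 for Cfd, 9.62 for Cidec and 8.15 for Cyp2e1 (log2, edgeR adjusted p from 0.0291 to 0.0455). The high libraries lie in miR-21 swimming and in empty vector control, and without them 0 genes passed.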

How the results depend on the processing

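The number of the 9 genes called was recomputed under each alternative. In empty vector swimming against empty vector control it was 6, and became 1 with limma voom and quality weights, 0 with the series term, and 2 to 8 with 1 library left out. In miR-21 control against empty vector control it was 1, and became 0 without a filter, 2 with a mean of at least 1 CPM, 6 with DESeq2, 0 with voom, 6 with the series term, 2 without the 3 libraries, and 0 to 6 with 1 left out. In miR-21 swimming against empty vector swimming it was 0, and became 1 with a mean of at least 1 CPM, 5 with DESeq2, and 0 to 2 with 1 left out. In miR-21 swimming against miR-21 control it was 0, and became 4 with DESeq2, 4 with the series term, and 0 to 0 with 1 left out. For the interaction it was 5, and became 0 with voom, with the series term and without the 3 libraries, and 0 to 7 with 1 left out. The other 20 recomputed counts stayed within 1.5 times the first.

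Voom weights each library, and with it 3 log2 fold changes in miR-21 swimming against miR-21 control turned negative: -0.56 for Adipoq, -0.30 for Cidec and -0.15 for Pck1 (adjusted p from 0.876 to 0.965). The cause was not tested. Of 200 recomputed log2 fold changes with all or a fixed set of libraries, 139 kept sign and side of the threshold, 28 newly passed and 30 no longer passed. All 72 mean levels under other scalings moved by less than 1 SD. Adipoq in empty vector swimming kept its call in 23 of 23 fits with 1 library left out (adjusted p 0.00184 to 0.0463).

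No paired analysis was possible because replicate numbers were given in accession order and pair nothing. Lep, Plin1 and Retn were too low for the main filter, and most of their libraries outside the 3 lay under the limit of 0.253 CPM, while Retn and Plin1 lay above it in the 4 remaining empty vector control libraries.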

Other observations

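Retnlg, a resistin-like gene of neutrophils, was at 52.1 CPM in miR-21 swimming replicate 2 and at 7.95 and 11.9 CPM in empty vector control replicates 2 and 5, against at most 5.07 CPM in the other 20. Among the carbonic anhydrases, Car8 rose in empty vector swimming against empty vector control (log2 fold change 0.68 ± 0.10, edgeR adjusted p = 0.000513), as did Car14 (0.69 ± 0.20, 0.0363), while Car9 (-2.20 ± 0.63, 0.0363) and Car5b (-1.37 ± 0.41, 0.0436) fell. Without the 3 libraries Car8, Car14 and Car9 were still called, and Car5b was not (-0.64 ± 0.30, edgeR adjusted p = 0.184). With all libraries, Car8 was called lower in miR-21 swimming against empty vector swimming. Its interaction of swimming with the vector was called at -0.77 ± 0.15 (edgeR adjusted p = 0.0223), opposite in sign to that of Car3, where 0.541% of all tested genes changed. Fabp4, the fatty acid binding protein of fat cells and capillaries, fell in miR-21 swimming against empty vector swimming (-0.38 ± 0.09, 0.0152), as did Mgll, monoglyceride lipase (-0.45 ± 0.08, 0.00361), and both were also called without the 3 libraries (edgeR adjusted p = 0.00567 and 0.000727).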
